A study of Homo sapiens with 2 samples.

Results

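The regions described here are the peaks of a GATA2 CLIP experiment that fall in 7 clusters of transfer RNA (tRNA) genes on 5 human chromosomes. A peak belonged to a cluster when its midpoint lay in a window fixed on the hg19 build, and 30 of the 2692 peaks in the deposited list did so. Chromosome 6 has 3 windows, which span 26290000 to 27090000, 27120000 to 27770000 and 28400000 to 28970000. The window of chromosome 1 spans 161360000 to 161600000 and that of chromosome 17 spans 7990000 to 8150000. Chromosome 5 has its window at 180500000 to 180660000, and chromosome 7 at 148980000 to 149420000. The rule picked peaks by position alone, but it also named length under 400 bp, score and spacing as the traits to describe. The windows were chosen with earlier results of these data known.

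The study recovered RNA bound by GATA2, a DNA-binding regulator of early blood cells, from K562, a human chronic myelogenous leukaemia line, carrying a GATA2 transgene. All cells had received 1 µg/mL doxycycline over 5 hours and 100 µM 4-thiouridine, a nucleoside that crosslinks to protein under long-wave ultraviolet light, over 24 hours, before exposure to 0.3 J/cm2 at 365 nm. A modified seCLIP gave 1 HA immunoprecipitate and 1 input library, and the peak list is that of the immunoprecipitate. The transgene's promoter is not given in the sources used here, and input values, cells without the transgene and replicate libraries were not analysed here, so no value below has a replicate check and the read depth behind a peak is unknown.

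A tRNA is a short, folded RNA that carries an amino acid to the ribosome. Its gene is transcribed by RNA polymerase III from promoter elements inside the gene, and human tRNA genes are gathered in a few clusters, of which the one on the short arm of chromosome 6 is the largest and lies among the replication-dependent histone genes. Near-identical copies of many tRNA genes make it hard to assign a read to 1 of them. RefSeq's gene table lists 443 nuclear tRNA genes on GRCh38, 155 of them on chromosome 6, 98 on chromosome 1, 33 on chromosome 17, 22 on chromosome 7 and 18 on chromosome 5. That table is of another build than the peaks, so it was used for names and gene order only, and no peak was assigned to a gene. The windows also hold other genes: on chromosome 17, for example, the protein-coding genes PER1, VAMP2 and TMEM107 and the small nucleolar RNA gene SNORD118 lie between the tRNA genes TRT-AGT5-1 and TRW-CCA3-3 in that table.

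Peaks in the tRNA gene clusters were often short. Of the 30 peaks, 13 (43.3%, exact 95% binomial interval 25.5% to 62.6%) were shorter than 400 bp, whereas 12.4% of all 2692 peaks and 12.0% of the 2662 peaks outside the clusters (interval 10.8% to 13.3%) were. The contrast was wider near the lower end of the length range. Under 350 bp lay 11 of the 30 cluster peaks (36.7%, interval 19.9% to 56.1%), against 3.08% of all peaks and 2.70% of the peaks outside (interval 2.12% to 3.39%). These intervals cover counting error only, and peaks of 1 cluster are not independent of one another. Peaks were not resampled, and with 1 library there was no test of the difference.

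**Figure D1:**
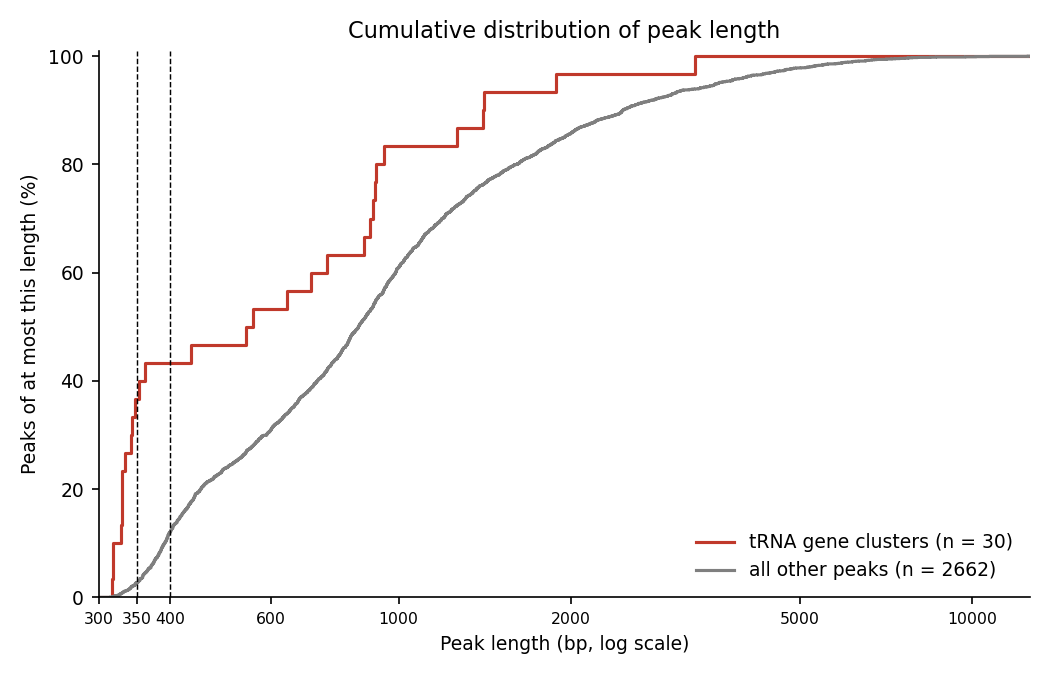
Cumulative share of peaks (percent) by peak length (bp, log scale) for the 30 peaks of the tRNA gene clusters and the 2662 other peaks, with dashed lines at 350 and 400 bp. The cluster curve has reached 36.7% below 350 bp, where the other peaks stand at 2.70%, and is nearly flat from 362 to 434 bp.

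The short cluster peaks sat close to the shortest length in the list, 314 bp. They measured from 317 to 362 bp with a median of 329 bp, while the 320 short peaks elsewhere ran up to 399 bp with a median of 372 bp. The clusters held 1.11% of all peaks. Only 8 peaks of the whole list were under 320 bp, and 3 of these lay in the clusters. Of the 28 peaks under 330 bp, 7 did, and of the 83 under 350 bp, 11 (13.3%). The limits of 320 and 330 bp were chosen after the lengths were seen. Around the limit of 400 bp, the longest short cluster peak had 362 bp and the next cluster peak 434 bp. The 17 longer cluster peaks had a median of 904 bp, close to the 935 bp of the 2342 longer peaks elsewhere. These groups were set by the limit of 400 bp, and whether the 30 lengths form separate groups was not tested. Among the longer cluster peaks there was a wider empty stretch, from 434 to 543 bp. The overall median of the 30, 550 bp (interval 343 to 892 bp), lies between the medians of 329 and 904 bp.

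Scores in the clusters were moderate. The score is the authors' own value for each peak, with no scale stated, and it is compared here only within the list. The 30 cluster peaks ran from 54.16 to 174.54 with a median of 80.8 (interval 66.4 to 91.8), against a median of 65.7 (interval 64.6 to 67.0) for all other peaks. The median of all peaks was exceeded by 21 of the 30 (70.0%), against 49.8% of the other peaks. A score above 100, by contrast, was reached by 5 of the 30 (16.7%), near the 16.0% of all peaks, and the best cluster peak ranked 102 in the list. Among short peaks alone, the cluster median was 86.3 (interval 61.5 to 94.9) and the median elsewhere 76.5 (interval 71.3 to 79.4), and these intervals overlap. Short and longer cluster peaks had like scores, with medians of 86.3 and 79.4.

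**Figure D2:**
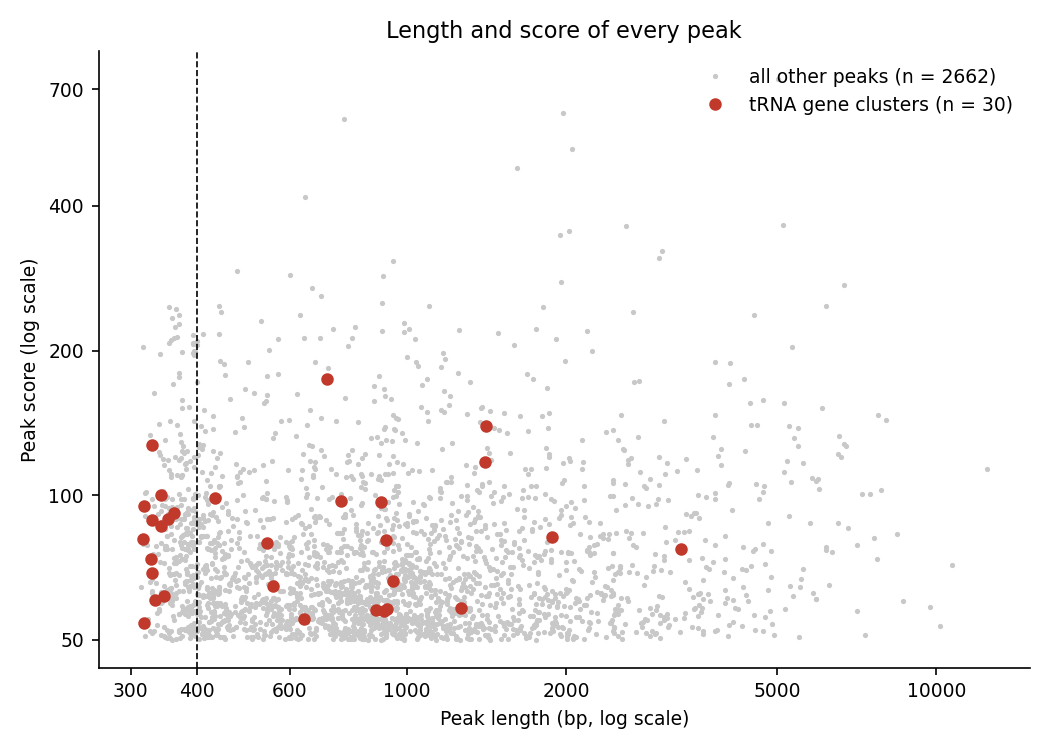
Score against length (bp) of each peak on log axes, with the 30 peaks of the tRNA gene clusters in red, the 2662 other peaks in grey and a dashed line at 400 bp. The 13 short cluster peaks form a column at 317 to 362 bp with scores from 54.16 to 127.30, and no cluster peak is among the highest scores of the list.

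Peaks were also crowded in the windows. The 7 windows cover 3.02 Mb and held 9.93 peaks per Mb (95% Poisson interval 6.70 to 14.2), against 0.915 (interval 0.881 to 0.951) in the rest of the chromosome spans, a ratio of 10.9. The outer flanks, which on chromosome 6 lie before the first and after the last of the 3 windows and leave out the stretches between them, cover 6.04 Mb together. They held 18 peaks, or 2.98 per Mb (interval 1.77 to 4.71), which gives a ratio of 3.33. The 0.63 Mb between the second and the third windows of chromosome 6, by contrast, held 10 peaks, or 15.9 per Mb (interval 7.61 to 29.2), so density there was no lower than in the tRNA windows. Of these 18 flanking peaks, 15 lay on chromosome 6 and 7 lay in histone gene windows, and only 2 were shorter than 400 bp. A neighbouring peak within 10000 bp was found for 15 of the 30 cluster peaks (50.0%, interval 31.3% to 68.7%), against 20.2% of all peaks. The share was 6 of 10 between those windows of chromosome 6, 61.9% in the histone gene clusters and 100% in the 5S array, so such crowding was seen in these regions too. A histone window covers the start of that stretch of chromosome 6, so the share there and that of the histone clusters rest partly on the same peaks. The close neighbours of the tRNA clusters were in 2 windows, the second of chromosome 6 with 9 and that of chromosome 1 with 6. Which sequence is transcribed or can be mapped uniquely was not known for any window, and the part of either in the crowding was not tested.

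The clusters differed in how many peaks they held. Chromosome 1 had the densest window with 8 peaks, or 33.3 per Mb (interval 14.4 to 65.7), followed by the second window of chromosome 6 with 11 peaks and 16.9 per Mb (interval 8.45 to 30.3). The window of chromosome 17 held 2 peaks, the third of chromosome 6 held 5 and the first of chromosome 6 held 4, at 12.5, 8.77 and 5.00 per Mb. The Poisson intervals of these 5 densities overlap, except that the interval of chromosome 1 lies above that of the first window of chromosome 6, which ends at 12.8. The windows of chromosomes 5 and 7 held 0 peaks. The Poisson intervals of these counts of 0 reach 23.1 and 8.38 peaks per Mb. At the density outside the clusters, 0.146 and 0.403 peaks would fall in windows of that size. The 2 empty windows therefore cannot be told from ordinary sequence. The density of all tRNA windows together, 9.93 per Mb, lies within the interval of chromosome 5 but above that of chromosome 7. The nearest peaks lay 122 kb beyond the window of chromosome 5 and 299 kb before that of chromosome 7. The chromosome 7 cluster is known for its cysteine tRNA genes, and 18 of the 22 tRNA genes that RefSeq lists on that chromosome are of the cysteine family with anticodon GCA.

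**Figure D3:**
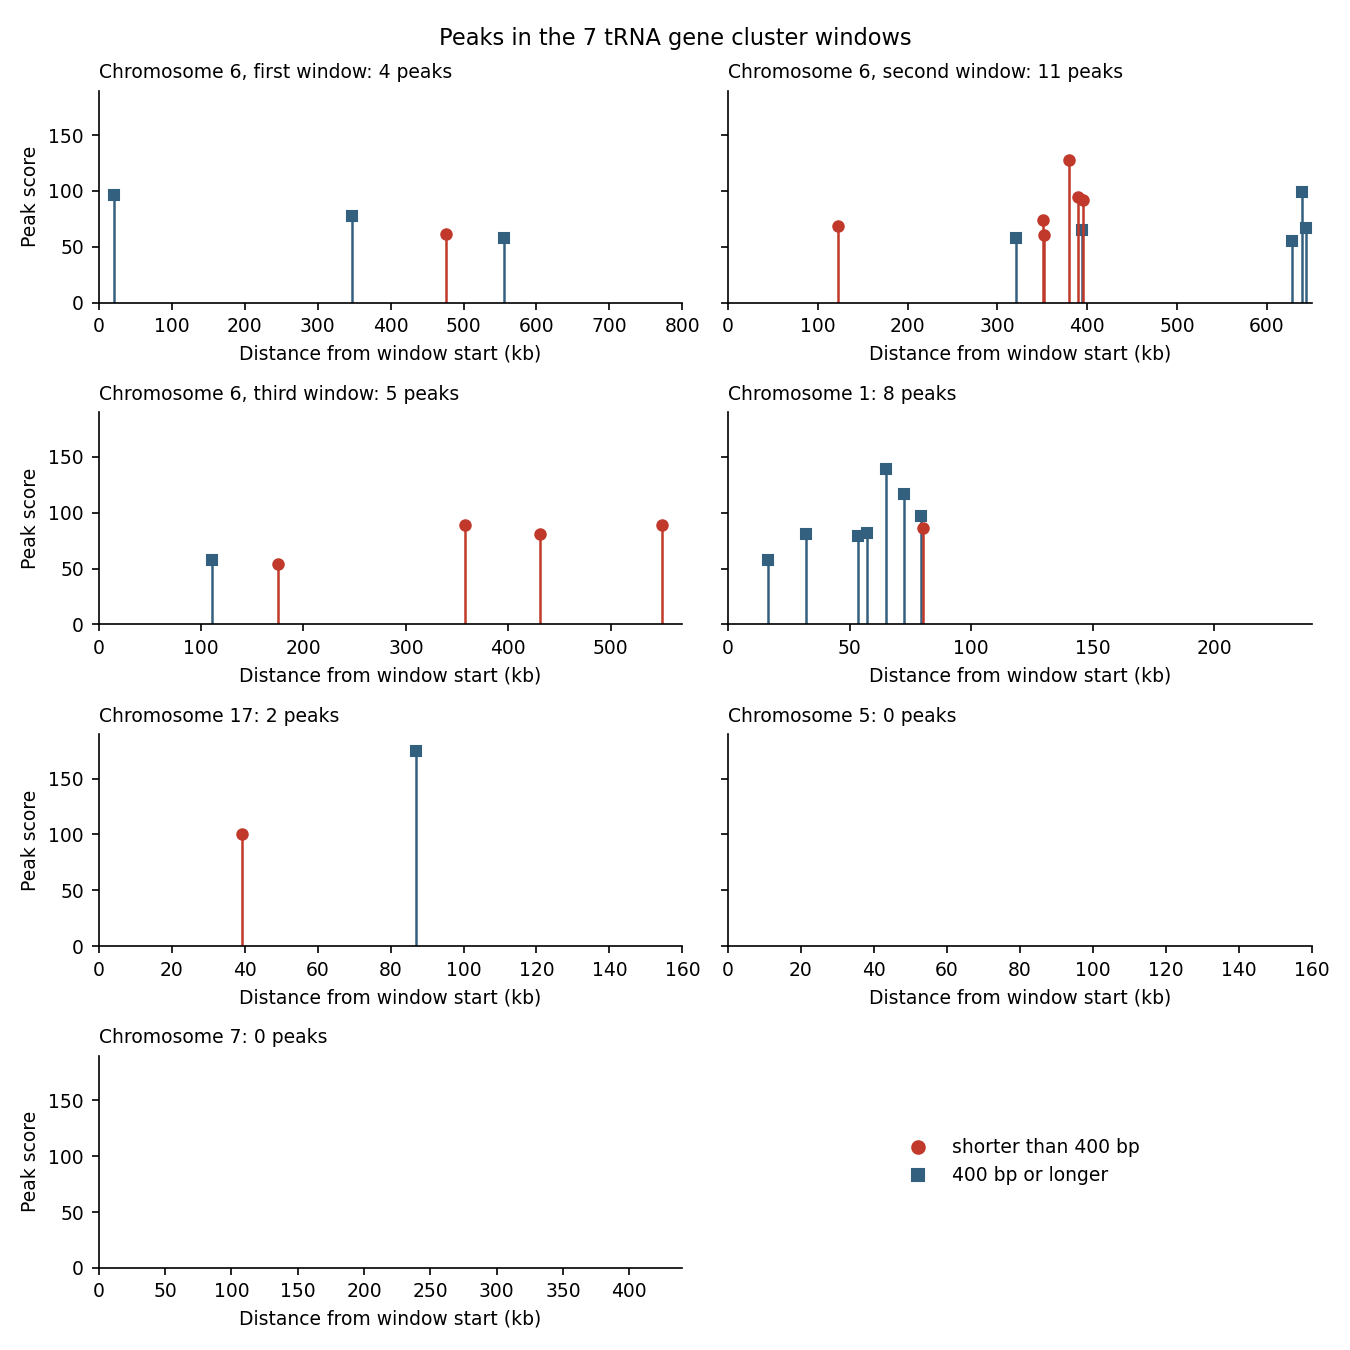
Score of each peak against the distance of its midpoint from the start of its window (kb), 1 panel for each of the 7 windows. Red circles are peaks shorter than 400 bp and blue squares longer ones. The short peaks gather in the second and the third windows of chromosome 6, the chromosome 1 peaks crowd into the first part of their window, and the windows of chromosomes 5 and 7 are empty.

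Chromosome 6 carried 11 of the 13 short peaks. In its 3 windows 11 of 20 peaks (55.0%, interval 31.5% to 76.9%) were shorter than 400 bp, against 14.2% of the 141 other peaks of that chromosome (interval 8.88% to 21.1%). The share was 6 of 11 in the second window, 4 of 5 in the third and 1 of 4 in the first. Outside chromosome 6, 2 of 10 cluster peaks (20.0%) were short, and the background share of 12.4% lies well within what so few peaks allow. Counted in bins of 1 Mb, the bin from 27 Mb of chromosome 6 held 6 short peaks and the bin from 28 Mb held 4, all in the tRNA windows. Only 4 of the 279 bins with a short peak held 4 or more, and the bins of the tRNA windows ranked 2 and 4 among them. The bin of the 5S ribosomal RNA array on chromosome 1 held the most, with 9.

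The second window of chromosome 6 held the tightest group of short peaks. Between 27439601 and 27515602, a stretch of 76.0 kb, lay 7 peaks, 5 of them short. The highest score of the group, 127.30, belonged to a peak of 329 bp from 27500013 to 27500341, which ranked 218 in the whole list and first among the short cluster peaks. About 9 kb further on, a peak of 318 bp from 27509286 to 27509603 scored 94.90. A peak of 557 bp from 27513494 to 27514050 scored 64.58. At a gap of 1190 bp followed the peak of 362 bp from 27515241 to 27515602, with a score of 91.81. The short peaks among these, of 329, 318 and 362 bp, each scored above 80.8, the median of all cluster peaks. The other short peaks of the group, described next, scored below it, at 73.66 and 60.60.

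The group also contained the closest pair of the window. A peak of 328 bp from 27470844 to 27471171 scored 73.66, and one of 334 bp from 27471529 to 27471862 scored 60.60, with 357 bp between them. Both are short, and they are nearly equal in length. The group began with a peak of 1266 bp from 27439601 to 27440866, the longest of this window, with a score of 58.24. The remaining short peak of the window stood alone nearer its start, 329 bp from 27242720 to 27243048, with a score of 68.95 and no peak within 100 kb.

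The last 3 peaks of the second window, spread over 16.1 kb near its end, were longer, at 639, 434 and 942 bp, with scores of 55.19, 98.87 and 66.43. The next peak, 5.95 kb past the window and just outside the rule, lay from 27774994 to 27776901 in a histone gene window, with 1908 bp and a score of 211.63. On the other side, the peak just before the window, from 27113880 to 27115735, had 1856 bp and a score of 122.04. Both bordering peaks were longer than every peak of the window. Only the peak with 127.30 scored higher than the one before the window, and none scored higher than the one after it.

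In the third window of chromosome 6 the peaks stood apart from one another, with 64.6 to 182 kb between midpoints. The short ones measured 318 bp from 28574958 to 28575275, 329 bp from 28757273 to 28757601, 317 bp from 28831189 to 28831505 and 353 bp from 28949968 to 28950320. Their scores were 54.16, 88.58, 81.05 and 89.18, so that the first was near the lower limit of the list and the other 3 were alike. The only longer peak, 904 bp from 28510031 to 28510934, scored 57.27. No peak of this window had a neighbour within 10000 bp, in contrast to the second window, so short length and crowding did not go together in all clusters.

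The 10 peaks between the second and the third windows included 0 short ones. Their median length was 959 bp, against 329 bp in the third window and 362 bp in the second. Their median score of 68.3 was close to the 69.0 of the second window. The stretch starts with histone genes, and 10 peaks allow a share of short peaks of up to 30.8% (exact 95% interval).

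The first window of chromosome 6 was the widest, at 800 kb, and held 4 scattered peaks. Its highest score, 96.69, was that of a peak of 892 bp from 26311155 to 26312046. The longest peak of all the clusters lay from 26636126 to 26639410, with 3285 bp and a score of 77.26. Of the closest pair, 78911 bp apart, the first was the only short peak of the window, 347 bp from 26766440 to 26766786 with a score of 61.54. The second, 872 bp from 26845698 to 26846569, scored 57.68. In median length, this window was thus closer to the whole list than the other 2 windows of the chromosome were, with 882 bp against 851 bp. That median rests on only 4 peaks, whose lengths ran from 347 to 3285 bp. Its density, at 5.00 peaks per Mb (interval 1.36 to 12.8), was above the 0.915 outside the clusters.

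The cluster on chromosome 1 was made of longer peaks. Its 8 peaks had a median length of 912.5 bp, only 1 was short, and all lay within 64.5 kb, from 161375814 to 161440277, after which the last 160 kb of the window held none. The lowest score was 58.00, the median 84.0 and the highest 139.19. The peaks covered 3.39% of the window, against 0.390% to 0.898% in the windows of chromosome 6.

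Most of these peaks formed an evenly spaced series. The 2 last peaks, 749 bp from 161438870 to 161439618 with a score of 97.29 and 343 bp from 161439935 to 161440277 with a score of 86.27, were only 316 bp apart and together spanned 1408 bp. The peaks before them measured 1407 bp, from 161424079 to 161425485, and 1401 bp, from 161431490 to 161432890. With the 2 last peaks joined, these 3 regions had almost the same extent. Their scores differed more, with 139.19 and 116.98 for the single peaks. Another region before them, 1879 bp from 161416227 to 161418105 with a score of 81.66, was longer at its start. The single short peak of this window was therefore the end of a region of about the same length as its neighbours.

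The 4 regions ended at nearly equal distances. From end to end the spacings were 7380, 7405 and 7387 bp, with a mean of 7391 bp (SD 12.9, n = 3 spacings). From start to start they were 7852, 7411 and 7380 bp, the first being wide because of the longer first region. With peaks within 1000 bp joined, which left 2615 regions, the list held 89 runs of 4 regions with spacings under 20 kb. In 9 of these the 3 end-to-end spacings differed by at most 5%. Of the 9, 7 lay at the 5S array and overlapped one another, 1 lay on chromosome X and 1 was this series, whose spacings differed by 0.338%. The series met the limit of 5% by its ends and with the last pair joined, but would not by its starts or with that pair apart. This description was made after the positions were seen, and it was not tested.

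In RefSeq's table, the tRNA genes of chromosome 1 include 5 genes that recur in the same order 4 times in a row, from TRE-CTC1-2 to TRG-GCC4-1. Each copy has 1 gene for glutamate tRNA with anticodon CTC, followed by genes for glycine (TCC), aspartate (GTC), leucine (CAG) and glycine (GCC). The run lies between the protein-coding genes CFAP126 and FCGR2A. The table is of GRCh38, so whether any of the 4 regions lies on these genes was not determined. How reads that match several copies were placed is not given in the sources used here.

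**Figure D4:**
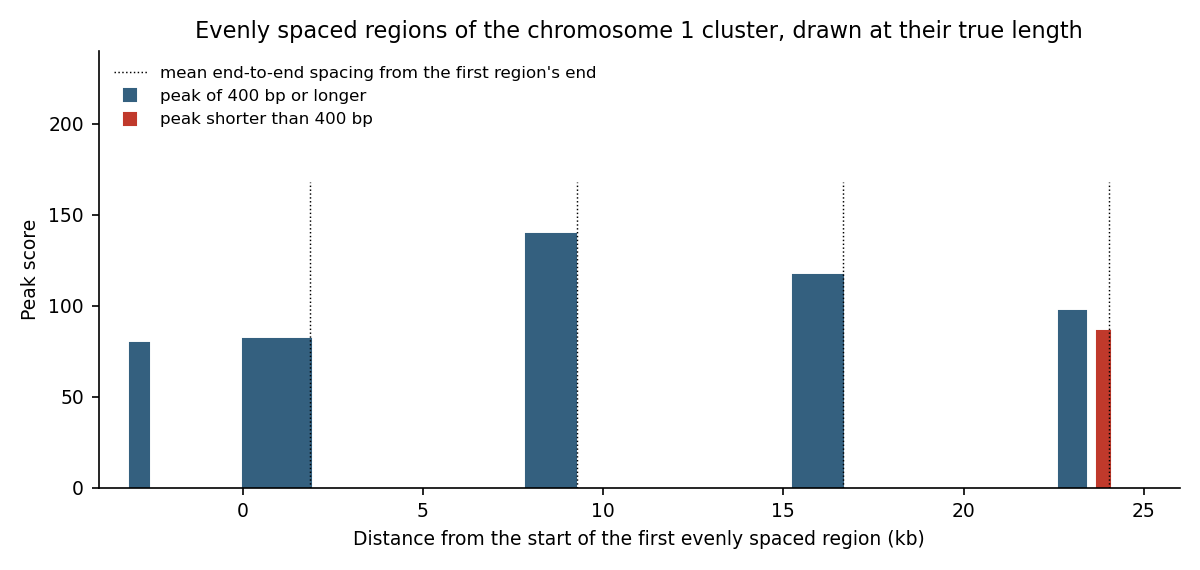
The last 6 peaks of the chromosome 1 window, drawn at their true length against the distance from the start of the first evenly spaced region (kb), with the peak score as height. Dotted lines repeat the mean end-to-end spacing of 7391 bp from the end of the first region and meet the end of each later region, including the pair of peaks 316 bp apart.

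The other 3 peaks of this window stood before the series. They measured 915, 910 and 543 bp, lay from 161375814 to 161376728, from 161391615 to 161392524 and from 161413083 to 161413625, and scored 58.00, 80.55 and 79.41. The first scored lowest of the window, and the other 2 were close to the first region of the series, at 81.66.

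Chromosome 17 contributed the highest score of all the clusters. Its peak of 704 bp from 8076512 to 8077215 scored 174.54, above 96.2% of the list by percentile rank. Its other peak, 342 bp from 8029063 to 8029404, scored 100.14, second among the 13 short cluster peaks after the 127.30 on chromosome 6. The pair lay 47107 bp apart, and both peaks exceeded 100, which only 3 of the other 28 cluster peaks did. Since the window also contains protein-coding and snoRNA genes, neither peak can be credited to a tRNA gene from its position in the window alone.

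The histone gene clusters and the 5S ribosomal RNA array, whose genes are also transcribed by RNA polymerase III, served for comparison. On chromosome 6 the histone windows lay just before the first tRNA window, between the first and the second, and just after the second. Another histone window lay on chromosome 1, apart from the tRNA window there, and the peaks of all histone windows were pooled. Of 21 peaks in the histone windows, 0 were shorter than 400 bp, which allows a share of up to 16.1% (exact 95% interval), and their median length was 1281 bp. Their density of 42.0 peaks per Mb was higher than the 9.93 of the tRNA windows, and their median score was 80.7, against 80.8. Histone and tRNA clusters thus had nearly equal median scores, but a score above 100 was reached by 33.3% and 16.7% of their peaks. In the tRNA windows of chromosome 6 alone the median score was 71.3. The intervals of the median lengths, 876 to 1856 bp and 343 to 892 bp, overlap narrowly, while those of the shares of short peaks do not.

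In the 5S window, 9 of 17 peaks (52.9%, interval 27.8% to 77.0%) were shorter than 400 bp, a share close to that of the tRNA clusters. None of the 17, however, was under 350 bp, as the shortest had 393 bp, against 317 bp in the tRNA clusters. Scores there had a median of 198 and a range from 137.33 to 215.93, so that the lowest 5S peak was above 28 of the 30 cluster peaks. The 5S peaks were therefore short too, but longer and higher scoring than the short peaks of the tRNA clusters.

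**Figure D5:**
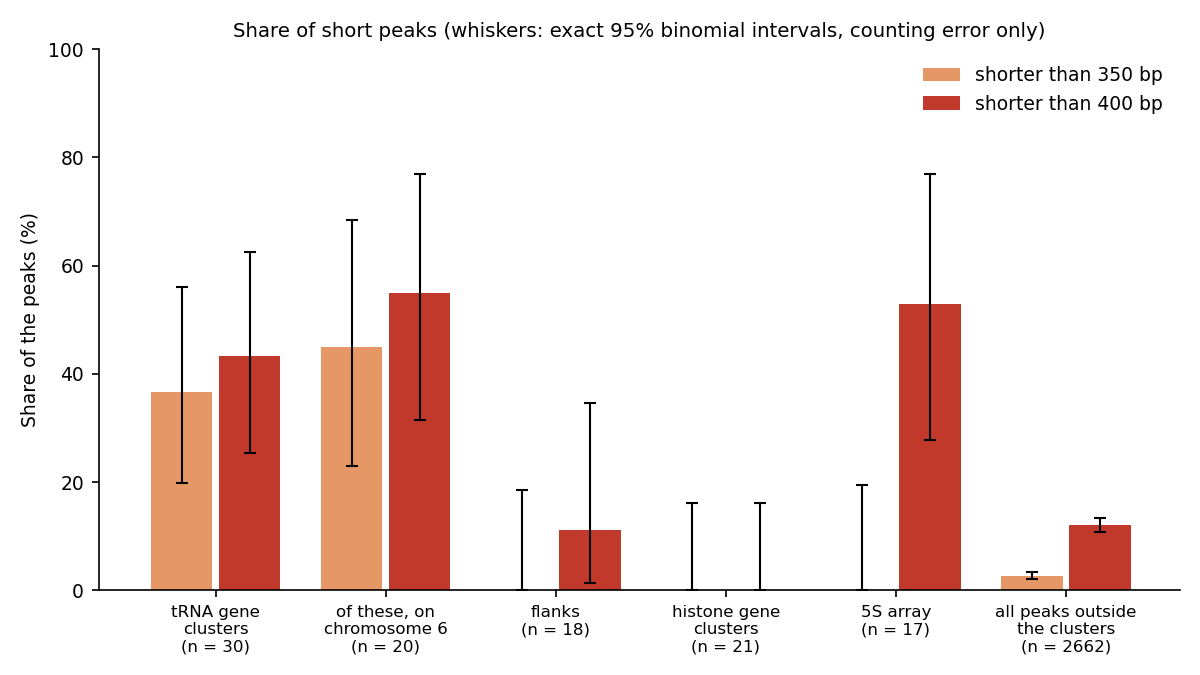
Share of peaks (percent) shorter than 350 bp and shorter than 400 bp in the tRNA gene clusters, in those of chromosome 6, in their flanks, in the histone gene clusters, in the 5S array and in all peaks outside the tRNA clusters, with exact 95% binomial intervals for counting error. Peaks under 350 bp make up 36.7% of the tRNA clusters and 2.70% of the peaks outside, and number 0 in the flanks, the histone clusters and the 5S array. The intervals of these counts of 0 reach 18.5%, 16.1% and 19.5%.

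Some short peaks of the tRNA clusters lay near one another. Of the 13, 7 (53.8%, interval 25.1% to 80.8%) had another short peak within 100 kb, against 51 of the 320 short peaks elsewhere (15.9%, interval 12.1% to 20.4%). All 7 were on chromosome 6, with 5 in one group of 44.8 kb in the second window and 2 in the third window, so the share rests mainly on that group. This measure also depends on the density of peaks and on the share of short peaks. Both were higher in the tRNA windows, so it is not a separate contrast. In all, the clusters supplied 3.90% of the 333 short peaks and 1.11% of all peaks.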

How the data were processed

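Per the submitters' processing notes, the authors' tools included bedtools, SAMtools, Bowtie2, cutadapt and UMI-tools 1.0.0, in no stated order, and the build was hg19. Peak names start with MACS; its version, threshold, control and treatment of reads with several positions are not given in the sources at hand. The list the authors deposited gives start and end per peak, written here counted from 1, and a score per peak, lowest 50, of unstated scale. Read counts are not part of it, and depth is therefore unknown.

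Peaks were placed by midpoint. Gaps run from edge to edge. Shares carry exact Clopper-Pearson intervals, densities exact Poisson intervals and medians order-statistic intervals, all at 95% and for counting error only. Densities outside the windows use the span from the first to the last peak of each chromosome. Flanks lay on each side of a chromosome's windows, each as long as those windows summed; the stretches between the windows of chromosome 6 were not part of them. The list comes from 1 library, so nothing was tested.

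Named peaks are those under 400 bp and, per window, the highest scoring, the longest and the closest pair; all others were named after their values were seen. The members, windows and comparisons were chosen with earlier results of these data known. No hg19 sequence or annotation was used here, so no sequence or gene assignment is given. Functions were checked on simulated data. Analyses ran in Python 3.11.15 with scipy 1.17.1, pandas 2.3.3, numpy 2.4.6 and, for plots, matplotlib 3.10.9.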

Additional observations from a re-analysis of the deposited data

How the results depend on the processing

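Of 68 recomputed values, 65 stayed within 1.5 times the peak number or within the reported interval. The exceptions were the share of short peaks without the windows of chromosome 6, which fell to 20.0% against 12.3% of other peaks (added after seeing the data), and the neighbour share, which was 13.3% at 1000 bp and 90.0% at 100000 bp, against 5.18% and 46.7% of other peaks. Leaving out 1 window at a time gave shares of short peaks from 36.0% to 54.5%. Without the second window of chromosome 6 the share with a neighbour within 10000 bp was 31.6%, and without that of chromosome 1 the median length was 357.5 bp. Without the windows of chromosome 6 it was 829.5 bp, against 851 bp. Joining peaks within 1000 bp, also added after seeing the data, gave 28 peaks. The share of short peaks was then 35.7%, against 12.1% of other peaks, and the median length 671.5 bp, against 855 bp. Overlap by any base changed no member, so the values recomputed with it were bound to stay the same. The windows of chromosomes 5 and 7 held no peak, so leaving either out could move only the density. Many of the reported intervals are also wide, so the count of 65 is only a weak check. Depth is unknown and there is 1 library, which bounds all of these. No paired analysis was possible because only 1 sample had a file.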
